A study of Mus musculus with 3 samples.

Results

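The Ikaros family of zinc finger transcription factors was examined in open chromatin maps of mouse leukemia lines, which are pre/pro-B cells transformed by BCR-ABL(p185). The members were the 5 genes *Ikzf1* (Ikaros), *Ikzf2* (Helios), *Ikzf3* (Aiolos), *Ikzf4* (Eos) and *Ikzf5* (Pegasus), out of 22028 protein-coding genes of the annotation, chosen by name. Every peak that overlapped a gene body or the 50 kb on either side of it was taken from the 4 peak lists, which gave 125 of 141076 peaks. Peaks of different lists that shared at least 1 bp were merged into regions, and 42 of 50965 regions lay at these loci.

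The cells came from bone marrow of mice that were transduced with a retrovirus carrying the BCR-ABL(p185) oncogene, and all lines share that oncogene. Donors were homozygous for wildtype *Cdk6* (Cdk6+/+, WT) or for the kinase-dead K43M allele (Cdk6KM/KM, K43M), and each genotype had 2 lines with 1 ATAC-seq library each. The lists are called WT unnumbered, WT replicate 2, K43M replicate 1 and K43M replicate 2, and where 4 values stand together they follow that order. The list WT unnumbered carries no sample label of its own and was placed in the WT group from the design text of the series. By that text 1 WT line had been deposited before and was reanalysed, and this list was taken as that line. Any effect of the earlier deposit on the values was not tested. Values are therefore given for each list, and some comparisons also without WT unnumbered. Whether a line is a clone, and the age of the donors, are not given in the sources used here.

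Ikaros proteins bind DNA through an amino-terminal group of zinc fingers and pair with each other through a carboxy-terminal group. In lymphocyte precursors they recruit the NuRD complex and other corepressors, and Ikaros and Aiolos drive the pre-B cell out of the cycling stage, which is why *Ikzf1* is a tumour suppressor that is often deleted in BCR-ABL leukemia. Helios and Eos are best known from T cells, and Pegasus is the most divergent and most broadly expressed member. An ATAC-seq peak marks DNA that the Tn5 transposase could reach, and a called peak at a promoter does not measure transcription.

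The lists held 33038 to 39038 peaks, K43M replicate 1 having the most. A promoter was the window from 2000 bp before to 200 bp after any annotated start of a gene. Over all protein-coding genes 47.5% were open there in every list. The label of the cells was checked against lineage markers. Of the B-cell precursor markers 7 of 10 were open in every list, and none of 6 T and NK cell markers, 6 myeloid markers or 6 erythroid and megakaryocyte markers was. The remaining B-cell markers, *Cd79b*, *Rag1* and *Rag2*, lacked a promoter peak in 1 list each. Among the markers of other lineages, *Lyz2*, which encodes a lysozyme of macrophages and granulocytes, had a promoter peak in both WT lists and in no K43M list. Of all regions, promoters or not, 4.51% showed that pattern, and the share among promoters alone is not given here. *Itga2b*, the platelet integrin, had one in all lists but WT unnumbered.

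By the number of merged regions, most of those at the 5 loci lay at *Ikzf1* and *Ikzf3*. The *Ikzf1* window held 17 regions, *Ikzf3* 13, *Ikzf4* 7, *Ikzf5* 4 and *Ikzf2* only 1. Per 100 kb of window this was 9.05 regions at *Ikzf1*, 7.18 at *Ikzf3*, 6.08 at *Ikzf4*, 3.28 at *Ikzf5* and 0.391 at *Ikzf2*, against 1.87 per 100 kb over the genome. These counts include regions called in 1 list, which were 7 at *Ikzf1*, 4 at *Ikzf3*, 1 at *Ikzf4*, 0 at *Ikzf5* and 1 at *Ikzf2*. Regions open in all 4 lists did not follow that order. They numbered 6 at *Ikzf1*, 7 at *Ikzf3* and 6 at *Ikzf4*, in windows of 188, 181 and 115 kb, with 3 at *Ikzf5* and 0 at *Ikzf2*. Of the 42 regions, 5 were promoters of the members, 12 lay inside a member gene and 25 in the flanks. Of the flank regions, 12 lay at promoters of other genes. The promoter regions of *Ikzf1*, *Ikzf4* and *Ikzf5* also overlapped the promoter windows of *Gm11999*, *Gm26876* and *Acadsb*.

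**Figure D1:**
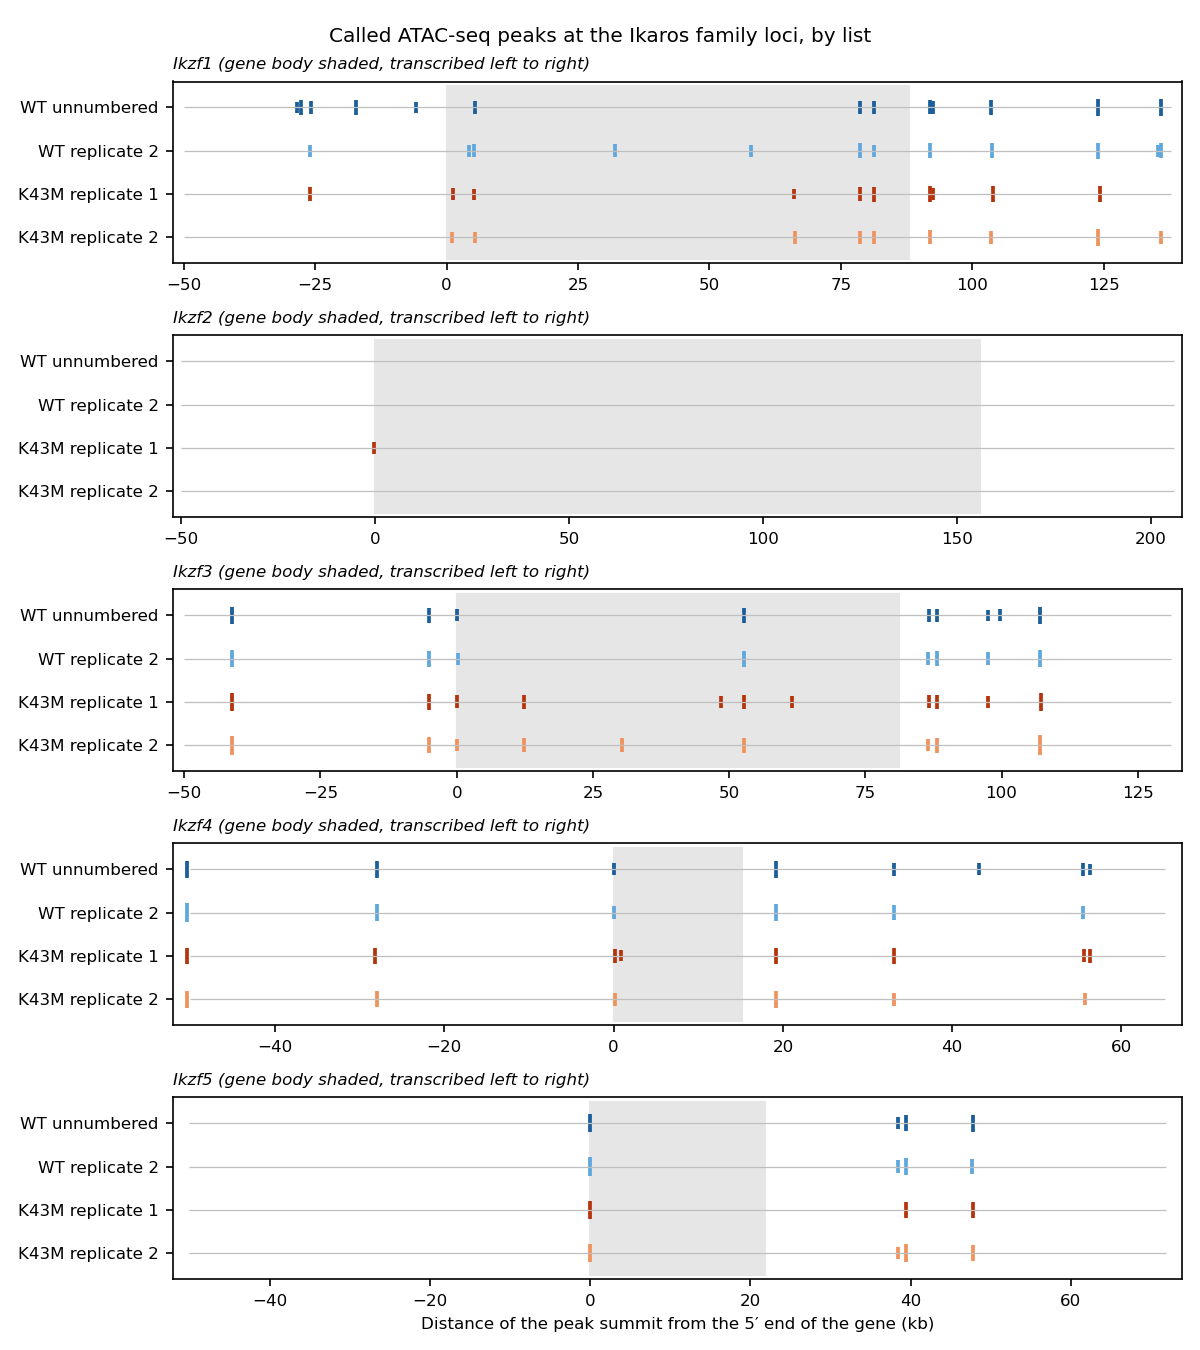
Peak summits of the 4 lists (rows) at each gene, plotted by distance in kb from the 5′ end of the gene, with the gene body shaded and taller ticks for higher fold enrichment. *Ikzf1* and *Ikzf3* carry peaks inside the gene, *Ikzf4* and *Ikzf5* only at the promoter and in the flanks, and *Ikzf2* has 1 peak in 1 list.

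The sequences below are from regions of *Ikzf1*, *Ikzf3* and *Ikzf5* that are described further on, and none of these regions passed the test between genotypes. They are from GRCm38 (mm10), on the strand of the gene, 5′ to 3′. The *Ikzf1* regions open in both K43M lists and in neither WT list come first, then the *Ikzf1* intron regions that were higher in WT, then the strongest intragenic region of the family and the short stretch between *Ikzf5* and its neighbour. Capitals mark matches on either strand to TGGGAA (Ikaros), CCCNNGGG (EBF1), CAGGTG (E2A), CCGGAAGT (ETS), GAGGAA (PU.1), TGTGGT (RUNX), TTCNNNGAA (STAT) and TGANTCA (AP-1), and adjoining capitals are overlapping or neighbouring matches.
Ikzf1 promoter, chr11:11685724-11685924, plus strand: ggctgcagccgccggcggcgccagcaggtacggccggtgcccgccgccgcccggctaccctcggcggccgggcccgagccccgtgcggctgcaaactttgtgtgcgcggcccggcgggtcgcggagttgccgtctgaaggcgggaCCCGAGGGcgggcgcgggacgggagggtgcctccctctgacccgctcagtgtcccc
Ikzf1 intron 5, chr11:11751098-11751298, plus strand: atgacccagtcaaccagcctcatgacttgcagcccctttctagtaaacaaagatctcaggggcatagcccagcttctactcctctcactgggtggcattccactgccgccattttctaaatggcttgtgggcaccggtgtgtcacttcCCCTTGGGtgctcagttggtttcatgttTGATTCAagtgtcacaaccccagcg
Ikzf1 intron 1, chr11:11690181-11690381, plus strand: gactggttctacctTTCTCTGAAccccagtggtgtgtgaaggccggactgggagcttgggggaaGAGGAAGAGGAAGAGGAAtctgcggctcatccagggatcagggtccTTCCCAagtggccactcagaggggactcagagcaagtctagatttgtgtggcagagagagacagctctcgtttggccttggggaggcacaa
Ikzf1 intron 8, chr11:11763487-11763687, plus strand: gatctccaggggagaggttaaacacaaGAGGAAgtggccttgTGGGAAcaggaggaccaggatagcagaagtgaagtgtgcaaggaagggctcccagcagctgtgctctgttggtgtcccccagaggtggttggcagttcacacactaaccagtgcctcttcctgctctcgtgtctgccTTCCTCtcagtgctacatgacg
Ikzf3 intron 3, chr11:98493153-98493353, minus strand: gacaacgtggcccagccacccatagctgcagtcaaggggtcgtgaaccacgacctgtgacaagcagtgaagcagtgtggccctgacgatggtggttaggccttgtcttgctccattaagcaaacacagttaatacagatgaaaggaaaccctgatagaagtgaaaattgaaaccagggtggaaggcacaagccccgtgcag
Ikzf5 upstream, chr7:131410522-131410600, minus strand: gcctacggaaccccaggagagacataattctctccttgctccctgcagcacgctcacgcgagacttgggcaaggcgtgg

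The *Ikzf1* promoter stretch, which ends at the base before the start site of the reference transcript, was 79.1% G and C and held a single EBF1 match. It lay inside the peak of K43M replicate 1 but outside that of K43M replicate 2, chr11:11685953-11686230. The stretch also missed the summit of the region, at position 11686129. Within 100 bp of that summit there were 1 EBF1, 2 E2A and 1 PU.1 matches. The *Ikzf1* intron 1 stretch held 3 PU.1 matches in tandem, 1 Ikaros match and 1 STAT match, and the stretch in intron 8 held 1 Ikaros and 2 PU.1 matches. No motif searched was found in the *Ikzf3* stretch of intron 3 or in the *Ikzf5* stretch. These matches describe letters and are not binding sites.

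*Ikzf3*, *Ikzf4* and *Ikzf5* had a promoter peak in all 4 lists, that is 3 of 5 members, against the 47.5% of protein-coding genes given above. *Ikzf1* had a promoter peak in both K43M lists and in neither WT list, a pattern that 1.99% of protein-coding genes showed. *Ikzf2* had a promoter peak in K43M replicate 1 alone.

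The *Ikzf1* promoter region, chr11:11685525-11686371, had its summit in the 5′ untranslated part of exon 1, 1126 bp from the 5′ end of the gene. Its fold enrichment, the authors' ratio of the read pileup at the summit to the local background of the same library, was 5.50 in K43M replicate 1 but only 3.09 in K43M replicate 2. It also overlapped the promoter window of *Gm11999*, a noncoding gene on the opposite strand, and the lists cannot tell these promoters apart. No peak was called there in WT unnumbered, whose nearest peak was 3578 bp away, or in WT replicate 2, whose nearest peak was 2714 bp away, both in intron 1. The K43M peaks were unequal. By -log10 q the peak of K43M replicate 1 stood at percentile 52.6 of its list, while that of K43M replicate 2 stood at 0.814, close to the calling limit. The summits held 31 and 14 read ends against local backgrounds of 241 and 193 read ends per 10 kb, which is 4.37 and 3.99 times the genome-wide background of those libraries. When only peaks with a -log10 q of at least 5 were used, or the same number of peaks from each list, the promoter was no longer a K43M-only region.

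Inside *Ikzf1*, 1 region of intron 1 and both regions of intron 8 were open in every list. That intron 1 region, chr11:11689949-11690635, is named here after its values were seen. Its fold enrichment was 4.99 and 5.58 in the WT lists and 3.46 and 3.56 in the K43M lists. Both WT values lay above both K43M values, and the spread within a genotype was small. On the log2 scale, with each library centred on its median, K43M was lower than WT by -0.59 ± 0.18 (SE, n = 2 libraries per genotype), which did not pass the limma test over all regions (adjusted p = 0.211). Without WT unnumbered the difference was -0.67 (limma adjusted p = 0.205).

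The same region showed how the ratio depends on its denominator. The summits held 37 and 21 read ends in the WT lists and 23 and 19 in the K43M lists. The local background was 331, 147, 297 and 231 read ends per 10 kb, lowest in WT replicate 2. Calculated from the summit pileup alone, the difference between genotypes was -0.31 (limma adjusted p = 0.652). The part of the local background in the genotype difference was not tested.

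The region near the 3′ end of *Ikzf1* in intron 8, chr11:11763115-11763740, had fold enrichments of 6.90, 8.46, 6.02 and 5.34 in list order. Here too both WT lists exceeded both K43M lists, by less: the difference was -0.43 ± 0.20 (SE, limma adjusted p = 0.430). The other intron 8 region, chr11:11766155-11766460, had 6.53, 4.48, 8.42 and 5.78, with the genotypes overlapping and WT replicate 2 lowest. Its difference was 0.37 ± 0.24 (SE, limma adjusted p = 0.596), and it ran from 0.10 without WT replicate 2 to 0.64 without WT unnumbered. Of the intragenic regions present in all lists, intron 1 and the first of the intron 8 regions were higher in both WT lists, and the second overlapped. Over all shared regions, 21% were higher in both WT lists and 21.3% in both K43M lists. None of these *Ikzf1* regions passed limma, so whether they differed together or apart is not established.

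Other regions inside *Ikzf1* were present in only some lists. The intron 5 region, chr11:11751034-11751453, was open in both K43M lists only, with fold enrichments of 3.33 (K43M replicate 1) and 5.09 (K43M replicate 2). The first value stood at percentile 0.0333 of its list, among the weakest peaks called, and rested on 6 read ends at the summit, while the other rested on 10. WT peaks were 11690 and 8037 bp away. WT replicate 2 alone had peaks in intron 3 (chr11:11716807-11717053, fold enrichment 6.25), intron 4 (chr11:11742786-11742997, 5.15) and at the start of intron 1 (chr11:11689085-11689284, 4.28). In WT unnumbered none of these was called.

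Upstream of *Ikzf1*, within the noncoding gene *Gm11999* that runs the opposite way, WT unnumbered had 4 regions of its own, with fold enrichments of 3.61, 8.21, 7.37 and 4.34. The strongest, chr11:11657166-11657486, stood at percentile 69.7 of its list and was matched in no other list. Only chr11:11658924-11659299 in that stretch was found more widely, in both WT lists (5.19 and 5.15) and in K43M replicate 1 (fold enrichment 6). Thus 7 of the 17 regions at *Ikzf1* were in 1 list, which was WT unnumbered for 4 of them and WT replicate 2 for 3. Across the genome 6.04% of regions were in WT unnumbered alone and 6.06% in WT replicate 2 alone.

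Downstream of *Ikzf1*, 3 regions were open in every list. The region 4028 bp past the gene, chr11:11776565-11777635, had fold enrichments of 7.04, 8.40, 10.1 and 7.30, again with overlapping genotypes. A region inside *Fignl1*, chr11:11788462-11789028, had 9.16, 8.73, 9.56 and 6.42, lowest in K43M replicate 2. The promoter of *Fignl1*, a DNA repair ATPase, had similar values in every list, at 11.3, 10.3, 9.97 and 10.4. A region inside *Ddc*, the aromatic amino acid decarboxylase gene, had 10.9 and 8.26 in the WT lists and 6.69 in K43M replicate 2, and it was missing in K43M replicate 1.

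At *Ikzf3*, the promoter region chr11:98545691-98546143 was open in every list but modest. Fold enrichment was 4.68 and 4.53 in the WT lists and 5.69 and 4.09 in the K43M lists. The K43M values enclosed the WT values, and the difference was 0.07 ± 0.20 (SE, limma adjusted p = 0.932). The sign of this small difference rested on 1 library: without K43M replicate 1 it was -0.11. The strongest intragenic region of the family that all lists shared lay in intron 3, chr11:98493022-98493752, with 9.13, 9.78, 7.98 and 8.82 and a difference of -0.17 ± 0.17 (SE, limma adjusted p = 0.755). Its enrichment exceeded that of the *Ikzf3* promoter in every list.

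The other intragenic regions of *Ikzf3* were called in K43M lists only. The intron 1 region was open in both, with nearly equal fold enrichments of 6.80 and 6.82, at percentiles 41.1 and 45.1. The nearest WT peaks were those of the promoter, 11731 and 11709 bp away. This was the K43M-only region that stayed K43M-only under the stricter q value, with equal numbers of peaks and when regions were formed from summits within 250 bp. K43M replicate 1 alone had peaks in intron 6 (chr11:98484444-98484643, fold enrichment 4.76) and intron 3 (chr11:98497433-98497831, 4.50), and K43M replicate 2 alone had an intron 3 peak at chr11:98515502-98515869 with 7.58. Across the genome 10.5% of regions were in K43M replicate 1 alone and 6.08% in K43M replicate 2 alone. A further 7.64% were in both K43M lists and neither WT list.

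**Figure D2:**
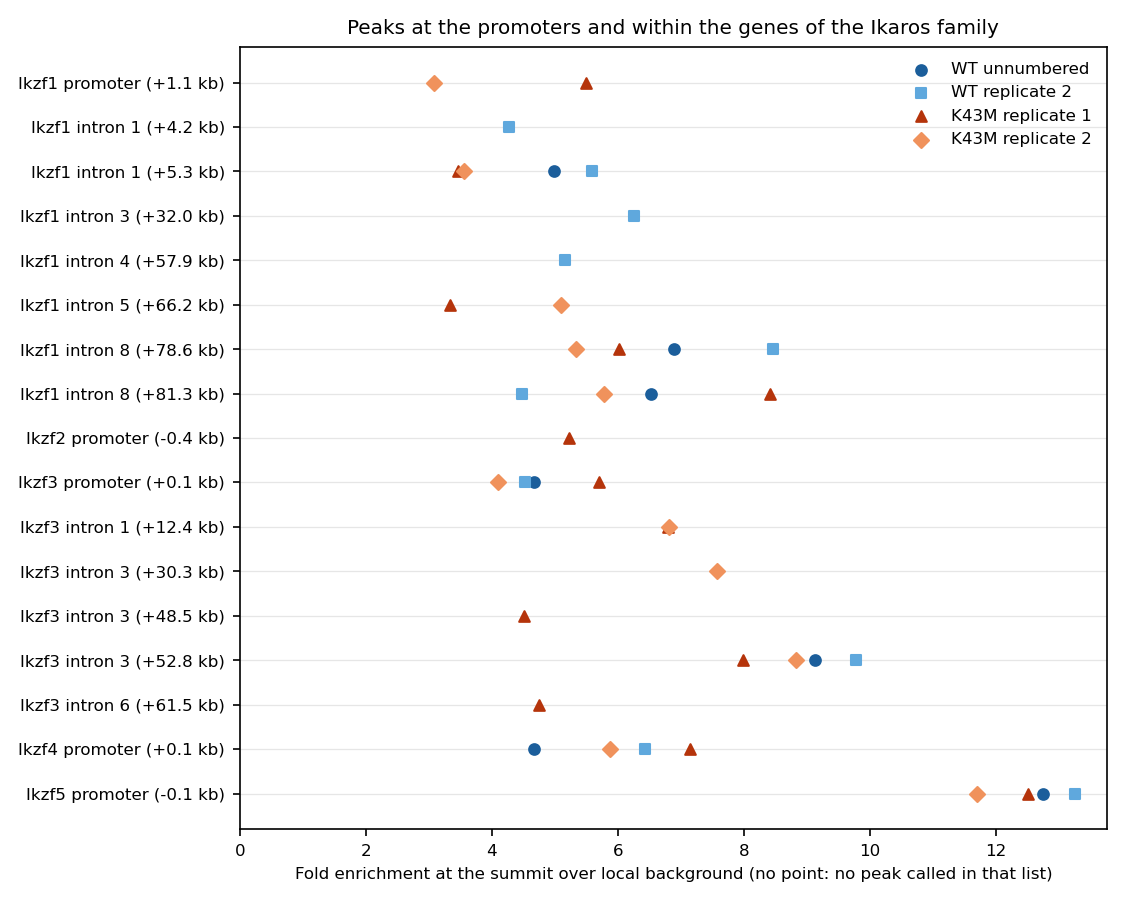
Fold enrichment over local background (horizontal axis, linear) of every promoter and intragenic region of the 5 genes, with 1 point per list that has a peak and the summit distance from the 5′ end of the gene in brackets. The *Ikzf5* promoter sits between 11.7 and 13.3 in all lists, *Ikzf1* intron 1 has both K43M points to the left of both WT points, and 3 regions have points of both K43M lists and no WT point.

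*Ikzf4* and *Ikzf5* had no intronic peak in any list. The *Ikzf4* promoter region, chr10:128645042-128646728, had fold enrichments of 4.67, 6.43, 7.14 and 5.88, lowest in WT unnumbered, with overlapping genotypes and a difference of 0.24 ± 0.22 (SE, limma adjusted p = 0.725). The difference was 0.01 without WT unnumbered, 0.48 without WT replicate 2 and 0.56 from the summit pileup. K43M replicate 1 had a further weak peak in this promoter at 3.70. The *Ikzf5* promoter region, chr7:131409849-131410948, covers the 79 bp printed above that lie upstream of *Ikzf5* and is shared with the divergent gene *Acadsb*, a mitochondrial acyl-CoA dehydrogenase. It had the highest fold enrichment of the member promoters in every list, with 12.8, 13.3, 12.5 and 11.7 at percentiles 93.3, 97.7, 95.4 and 91.6. Both WT values were above both K43M values, yet the difference was only -0.10 ± 0.11 (SE, limma adjusted p = 0.792).

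*Ikzf2* had almost no peaks. In a window of 256 kb the lists held a peak only in K43M replicate 1, at chr1:69687160-69687704. This peak overlapped the 5′ end of the gene and had its summit 391 bp upstream of it. Its fold enrichment was 5.23 from 10 read ends at the summit, at percentile 14.2 of that list. The other lists had no peak in the window, which does not show that the DNA was closed, since weaker openness than the calling limit is not listed.

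The promoters therefore ranked from *Ikzf5* (11.7 to 13.3) through *Ikzf4* (4.67 to 7.14) and *Ikzf3* (4.09 to 5.69) to *Ikzf1* and *Ikzf2*, which were not called in every list. The ranges of *Ikzf4* and *Ikzf3* overlapped, while *Ikzf5* stood above both in every list. The summit counts gave the same order at the top, with 75, 87, 80 and 58 read ends at *Ikzf5* against 17 to 31 at *Ikzf3* and 19 to 38 at *Ikzf4*.

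**Figure D3:**
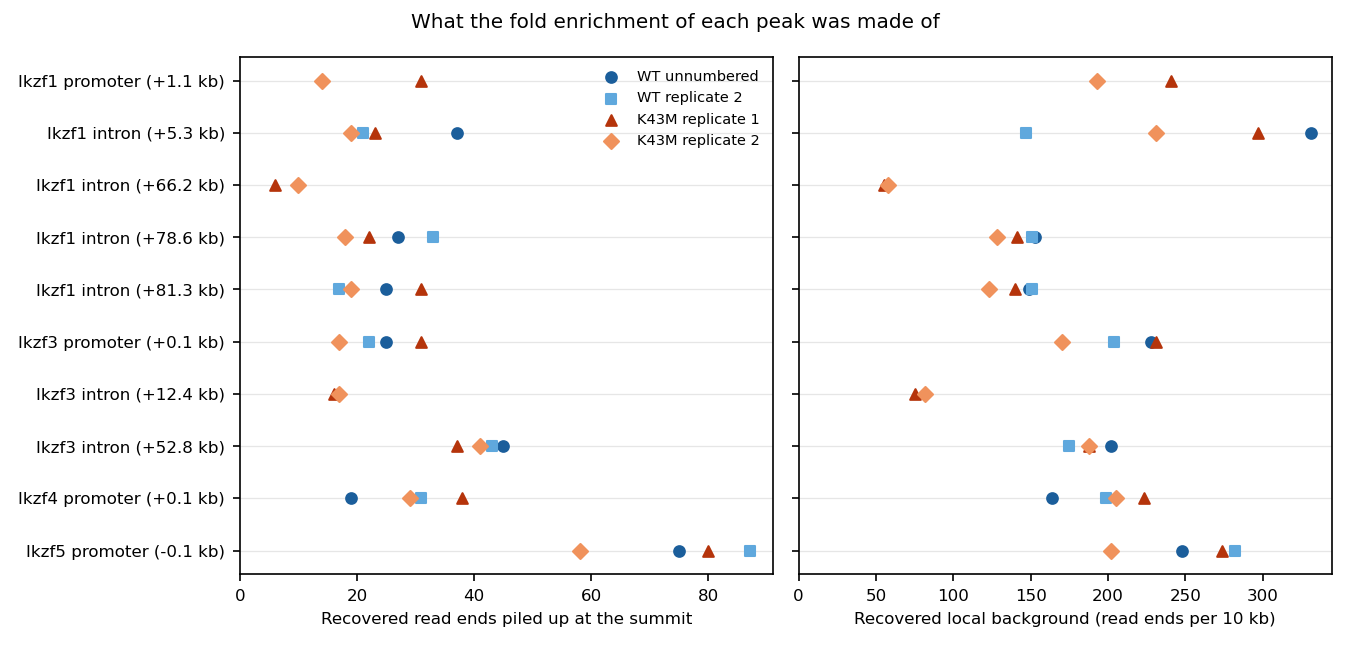
Read ends at the summit (left) and local background in read ends per 10 kb (right), recovered from the deposited values, for promoters and intragenic regions with a peak in at least 2 lists. At *Ikzf1* intron 1 the background of WT replicate 2 (147) is the lowest of the 4 lists, and the *Ikzf5* promoter holds the most read ends, 58 to 87.

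Across the loci, 22 of 42 regions were open in all 4 lists, where 41.2% of all regions were. No region was open in both WT lists and neither K43M list, against 4.51% of all regions, and 3 were open in both K43M lists and neither WT list, against 7.64%. These 3 were the *Ikzf1* promoter, *Ikzf1* intron 5 and *Ikzf3* intron 1, all inside a gene of the family. The share of K43M-only regions was thus near that of the genome. Among regions in all 4 lists, the median percentile of the weakest list was 70.6 at the loci, flanks included, and 57.1 over the genome. Most shared regions at member promoters or inside members lay below 57.1. These were *Ikzf1* intron 1 (9.94), both *Ikzf1* intron 8 regions (34.8 and 19.6) and the *Ikzf3* and *Ikzf4* promoters (14.95 and 22.5). Above 57.1 were *Ikzf3* intron 3 (69.2) and the *Ikzf5* promoter (91.6). The value of 70.6 therefore does not describe the member genes alone.

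The WT lists held 34 and 30 peaks at the 5 loci and the K43M lists 33 and 28. The genotypes overlapped, with a mean of 32 ± 2.83 (SD, n = 2) in WT and 30.5 ± 3.54 (SD, n = 2) in K43M. The difference of -1.5 peaks gave p = 0.667 by a two-sided exact permutation test, for which 0.333 is the smallest p that 2 against 2 libraries allow, and without WT unnumbered the difference was 0.5. With the same number of peaks from each list it was -4, with no overlap between genotypes (exact permutation p = 0.333). Counted within the gene bodies alone the order was the other way: 7 and 10 peaks in the WT lists against 14 and 11 in the K43M lists. The genotypes did not overlap, with a difference of 4 peaks (exact permutation p = 0.333, the smallest possible), and *Ikzf3* gave most of it, with 2, 2, 5 and 4 peaks in its body. Over the genome the K43M lists also held more peaks, a mean of 36895 against 33643.

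Fold enrichment could be compared between genotypes in the 21012 regions that all lists shared. At the loci, 0 of 22 regions passed limma at an adjusted p of 0.05, where 0.109% of all regions did, and the lowest adjusted p was 0.124. On simulated data with 2 libraries per genotype, this test called 2 of 100 shifts of 1 on the log2 scale. The spreads simulated were the observed ones shuffled over regions, so that rate need not hold for the real data. With 2 libraries per genotype, a count of 0 does not show that the regions did not differ. At an unadjusted p under 0.05 there were 3 of 22, against 12.2% of all regions. The median difference was 0.03 over the 22 regions and 0.00 over all regions, and the 5th and 95th percentiles of all differences were -0.43 and 0.46. By locus the median was -0.13 at *Ikzf1*, 0.07 at *Ikzf3*, -0.01 at *Ikzf4* and -0.09 at *Ikzf5*.

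**Figure D4:**
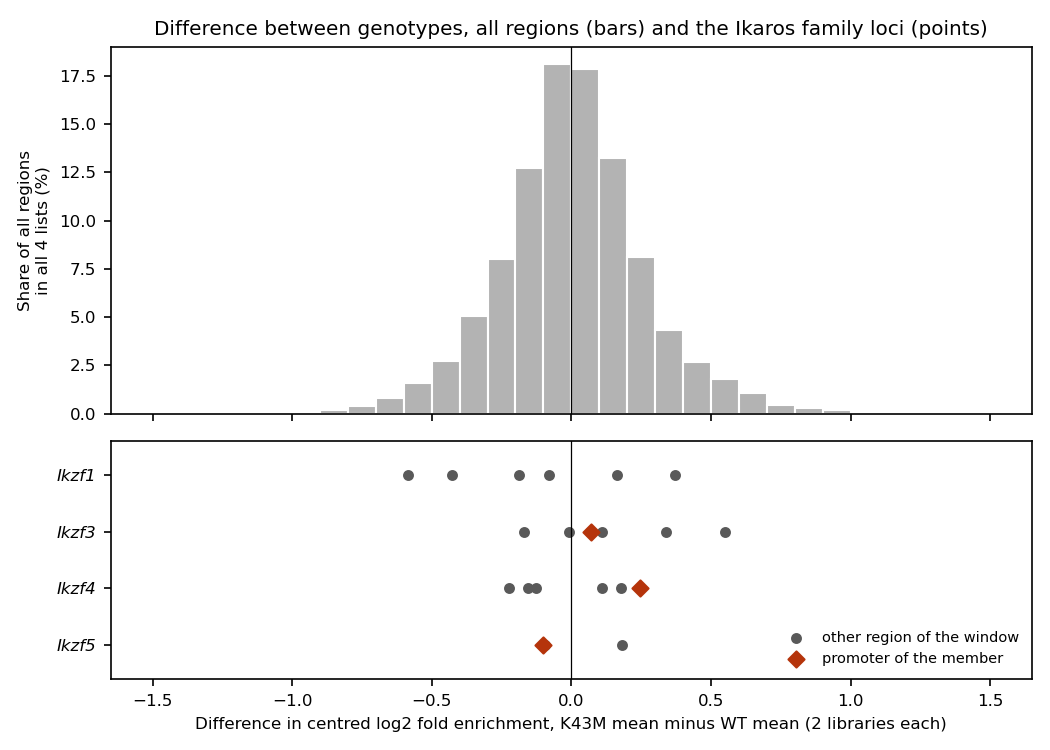
Differences in centred log2 fold enrichment, K43M mean minus WT mean, for all 21012 regions in all 4 lists (upper bars, share per bin of 0.1) and for the 22 regions of the loci (lower points, member promoters as diamonds). The points span -0.59 to 0.55, and the member promoters lie between -0.10 and 0.24.

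Genotypes did not overlap at 8 of the 22 regions. K43M was higher at 3 regions, against 21.3% of all regions, and WT at 5, against 21% of all regions. The 3 that were higher in K43M were promoters of neighbours of *Ikzf3*, singled out after their values were seen. *Mien1*, a membrane-anchored protein gene next to *Erbb2*, had 10.3 and 10.4 in the WT lists and 14.0 and 16.3 in the K43M lists. This was the locus region with the lowest p: 0.55 ± 0.13 (SE), limma adjusted p = 0.124. It passed the limma threshold from the summit pileup (0.72, adjusted p = 0.0470) and without WT replicate 2 (0.55, limma adjusted p = 0.0498), where the spread comes from the K43M libraries alone and the lone WT library is assumed to vary like them. Without K43M replicate 2 the difference was 0.38 (limma adjusted p = 0.478). *Ormdl3*, a regulator of sphingolipid synthesis, had 11.4, 10.3, 12.2 and 15.4 with a difference of 0.34 ± 0.15 (SE, limma adjusted p = 0.385), which was 0.12 without K43M replicate 2. The promoter of *Zpbp2* differed by only 0.07. The *Mien1* and *Ormdl3* promoters lay on opposite sides of *Ikzf3*, while the *Ikzf3* promoter between them differed by 0.07.

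The 5 regions higher in WT were the *Ikzf1* regions of introns 1 and 8, the promoters of *Suox* and *Rab5b* near *Ikzf4*, and the *Ikzf5* promoter. *Suox*, which encodes sulfite oxidase, had 11.2, 10.7, 10.4 and 9.19, and *Rab5b*, an endosomal GTPase gene, had 11.8, 13.6, 10.7 and 10.9. The differences of these 5 regions ran from -0.59 to -0.10.

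Genes whose promoters had the most similar set of 4 values to a member were found among 10471 protein-coding genes by the Euclidean distance of centred log2 fold enrichment over the 4 lists. Nearest to the *Ikzf3* promoter were *Tmsb4x* (distance 0.110) and *4931414P19Rik* (0.152), nearest to *Ikzf4* were *Zmynd11* (0.0523) and *Ptger2* (0.110), and nearest to *Ikzf5* were *Bod1* (0.0253) and *Ccdc51* (0.0380). With 4 values per gene such likeness is a description.

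Genes that work with Ikaros factors, and some other zinc finger genes, are described by their promoter peaks. These stand beside the 47.5% of protein-coding genes with such a peak in every list. The lists were not tested against that share. The NuRD and corepressor partners, among them the remodelling ATPases *Chd3* and *Chd4* and the deacetylases *Hdac1* and *Hdac2*, had a promoter peak in all 4 lists in 17 of 17 cases. The SWI/SNF partners had one in 5 of 5. So did the subunits of the cereblon ubiquitin ligase, through which lenalidomide degrades Ikaros and Aiolos in human cells, in 5 of 5. The zinc finger genes *Zfpm1*, *Zfp36l1* and *Zbtb7a*, whose link to Ikaros factors was not examined here, had one in 3 of 3. Of 26 genes that Ikaros factors control in B-cell precursors, 19 had a promoter peak in all lists. *Dntt*, the terminal transferase, and *Kit*, a progenitor receptor, had none in any list. *Ctnnd1* had a peak in K43M replicate 1 only, *Rag2* lacked it in WT replicate 2, and *Cd79b*, *Itga5* and *Rag1* lacked it in K43M replicate 2. No gene of these lists was open in both lists of a genotype and in neither of the other.

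Motifs were counted within 100 bp of the summit of each region. Ikaros matches were in 8 of 42 regions (19.0%, against 15.4% of all regions) and E2A matches in 9 (21.4% against 16.3%). EBF1 matches were in 4 (9.52% against 15.04%), PU.1 matches in 7 (16.7% against 27.7%) and RUNX matches in 6 (14.3% against 22.5%). The STAT pattern was in 3 (7.14% against 6.91%), ETS in 1 (2.38% against 2.21%) and AP-1 in 1 (2.38% against 7.60%). Of the Ikaros matches, 6 were in regions open in all 4 lists, among them *Ikzf1* intron 1 and intron 8.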

How the data were processed

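ATAC-seq was done by the authors on 4 libraries. According to the methods and the submitters' processing notes, reads were trimmed (Trimmomatic 0.36), mapped to mm10 (BWA 0.7.15, SAMtools 1.3.1) and called as peaks per library with MACS2 2.1.0. For every peak the authors deposited a fold enrichment (a ratio) with its -log10 p and -log10 q. MACS2 derives both from a Poisson model, so the pileup and local background (10 kb) were recovered for 100% of peaks. The genome background was 65.3, 56.7, 55.1 and 48.4 read ends per 10 kb in the order WT unnumbered, WT replicate 2, K43M replicate 1 and K43M replicate 2, the only measure of depth here, and precision is limited by these counts.

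Peaks sharing 1 bp were merged. Log2 fold enrichment was centred per library and tested with limma 3.58.1 (R 4.3.3, mean trend, Benjamini-Hochberg over all regions), and peak numbers by exact permutation. The lines of a genotype are separate lines. Each SE and limma p-value combines the spread between these lines with a variance trend over all shared regions. At the *Ikzf5* promoter, for example, the SDs were 0.043 in WT and 0.0099 in K43M, while the SE was 0.11. Annotation was GENCODE release 21 and sequence GRCm38 from RefSeq, and the sequence of 1 region is not reported here. The members and lists were chosen with earlier results of these data known. Named regions were each member's promoter, its 2 intragenic regions with the highest mean log2 fold enrichment, and all genotype-only or limma-called regions. Others are named as chosen after their values were seen. Alternatives changed the peak threshold, number of peaks, window, merging, promoter definition, scaling and libraries. The limma step was tested on simulated data, where it recovered the mean sizes of the shifts. It called 2 of 100 shifts of 1 and 60 of 100 shifts of 2 on the log2 scale. The simulated spreads were the observed ones shuffled over regions, so these rates need not be those for the real data. Python 3.11.15 was used with numpy 2.4.6, pandas 2.3.3 and scipy 1.17.1.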

Additional observations from a re-analysis of the deposited data

How the results depend on the processing

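The count of members with a promoter peak in all 4 lists was 3 under every alternative tried. Regions open in all 4 lists stayed between 21 and 30 except for gene bodies alone, where there were 7. The 3 K43M-only regions fell to 1 with a -log10 q of at least 5 or with equal numbers of peaks, and were 3 to 7 with a library left out, 7 without K43M replicate 2. WT-only regions rose from 0 to 1 with a window of 100 kb and to 2 to 6 with a library left out, since the other library then stood alone for its genotype. The difference in peaks, -1.5, was -4 with equal numbers of peaks, -2 with a -log10 q of at least 5, 4 for gene bodies alone and 0 for 100 kb, and ranged from -4 to 1 with a library left out. It was 0.5 without WT unnumbered and 1 without K43M replicate 2. Regions past limma rose from 0 to 1, the *Mien1* promoter, with the summit pileup (adjusted p = 0.0470) and without WT replicate 2 (limma adjusted p = 0.0498). Over its alternatives its limma adjusted p ran from 0.0470 to 0.478, the latter without K43M replicate 2. With a library left out there were 0 to 1 such regions. Over all regions limma called 23, which became 0 without centring, 10 with quantile or promoter centring, 908 with the pileup, 252 without WT unnumbered, 361 without WT replicate 2 and 0 without either K43M library. The median difference ranged from -0.017 to 0.032 with a library left out. The *Ikzf3* promoter difference ranged from -0.11, without K43M replicate 1, to 0.26, without K43M replicate 2. The cause of these changes was not tested. *Ikzf1* intron 1 gave no value at the stricter q. Peak lists hold no value below the calling limit, so an absent peak bounds nothing.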
